A study of Mus musculus with 11 samples.

Results

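Scaffold genes of excitatory synapses were followed on whole-genome arrays of the hypothalamus of young mice. These were Dlg1, Dlg2, Dlg3, Dlg4, Shank1, Shank2, Shank3, Homer1, Nlgn1 and Prr7, 10 of the 19987 genes that could be matched to the array. Every mouse probe whose RefSeq accession belongs to 1 of these genes was taken, regardless of its values, which gave 19 of 39429 mouse probes. Homer1 had 5 probes, Shank1 had 3, Dlg1, Dlg2 and Shank3 had 2 each, and Dlg3, Dlg4, Shank2, Nlgn1 and Prr7 had 1 each.

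Samples came from male C57BL/6N offspring at P21, with no transgene or knockout in either group. Offspring of dams on standard chow formed the control group (CO, labelled SD, 5 samples), and offspring of dams on a high-fat diet before conception, during gestation and during lactation formed the HFD group (6 samples). The question was how the maternal diet relates to RNA levels in the hypothalamus of the offspring. Whether a sample was 1 animal, and its litter, are not given in the labels. The p-values compare the groups against the spread among these samples and take the samples as independent. The paper allowed more than 1 offspring of a dam to be analysed, so samples may share a litter. The diet of the dams spanned pregnancy and suckling, so these periods cannot be told apart.

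The postsynaptic density is a protein mesh under the membrane of excitatory synapses. Its upper layer is built by the Dlg proteins, membrane-associated guanylate kinases whose PDZ domains hold glutamate receptors and adhesion molecules. Shank proteins lie deeper and are tied to the Dlg proteins through Dlgap proteins and to metabotropic glutamate receptors through Homer proteins. Neuroligin 1, the product of Nlgn1, spans the membrane and binds neurexins of the opposite, presynaptic side, and Prr7 encodes a proline-rich transmembrane protein of the same density.

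Each sample was hybridized to its own array with a single dye, so that brighter spots had bound more transcript. Levels are given as log2 of the background-subtracted signal minus the 75th percentile of the array, so that 0 is the level of that percentile, and differences are HFD minus CO on this scale. Levels of different probes are not compared, since probes bind with different strength. HFD and CO arrays were on different slides and had different names of the extraction protocol in their file headers. Diet therefore cannot be told apart from slide and protocol for any result here. Between 82.5 and 85.7% of spots on CO arrays and between 71.8 and 77.4% on HFD arrays were well above background, and the 19 probes of the scaffold genes were well above background on all 11 arrays. Control probes for RNA added to each sample (spike-in) were 0.67 higher on this scale on HFD arrays (p = 0.00216 by a two-sided exact permutation test, which 5 against 6 arrays cannot go below). Scaling to these probes therefore lowers every difference by 0.67.

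Of the 19 probes, 2 were higher in HFD offspring, 11 were lower and 6 stayed short of the threshold (limma, two-sided, Benjamini-Hochberg adjustment over 31790 probes tested, adjusted p under 0.05). Over all probes tested, 67.1% passed, 23.6% as higher and 43.6% as lower. The share of scaffold probes that passed, 13 of 19, therefore lay close to the share over the whole array. Their median difference was -0.45, against -0.18 over all probes. Over the 27162 probes that, like these 19, were well above background on all 11 arrays, the median was -0.11. In 11 of the 19 probes the 2 groups did not overlap, 9 with HFD lower and 2 with HFD higher, against 48.0% of all probes without overlap, 30.6% with HFD lower and 17.4% with HFD higher. A fall of at least 2-fold was found for the probe of Prr7, the probe of Dlg4 and the brighter probe of Dlg2, while 12.7% of all probes fell by at least 2-fold and passed the test. With scaling to the spike-in probes, none was higher and 18 were lower, as were 25562 of all 31790 probes, with 2261 higher. The SD was larger among CO than among HFD samples for 15 of the 19 probes, as for 61.4% of all probes, and its median over the scaffold probes was 0.18 in CO and 0.14 in HFD.

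**Figure D1:**
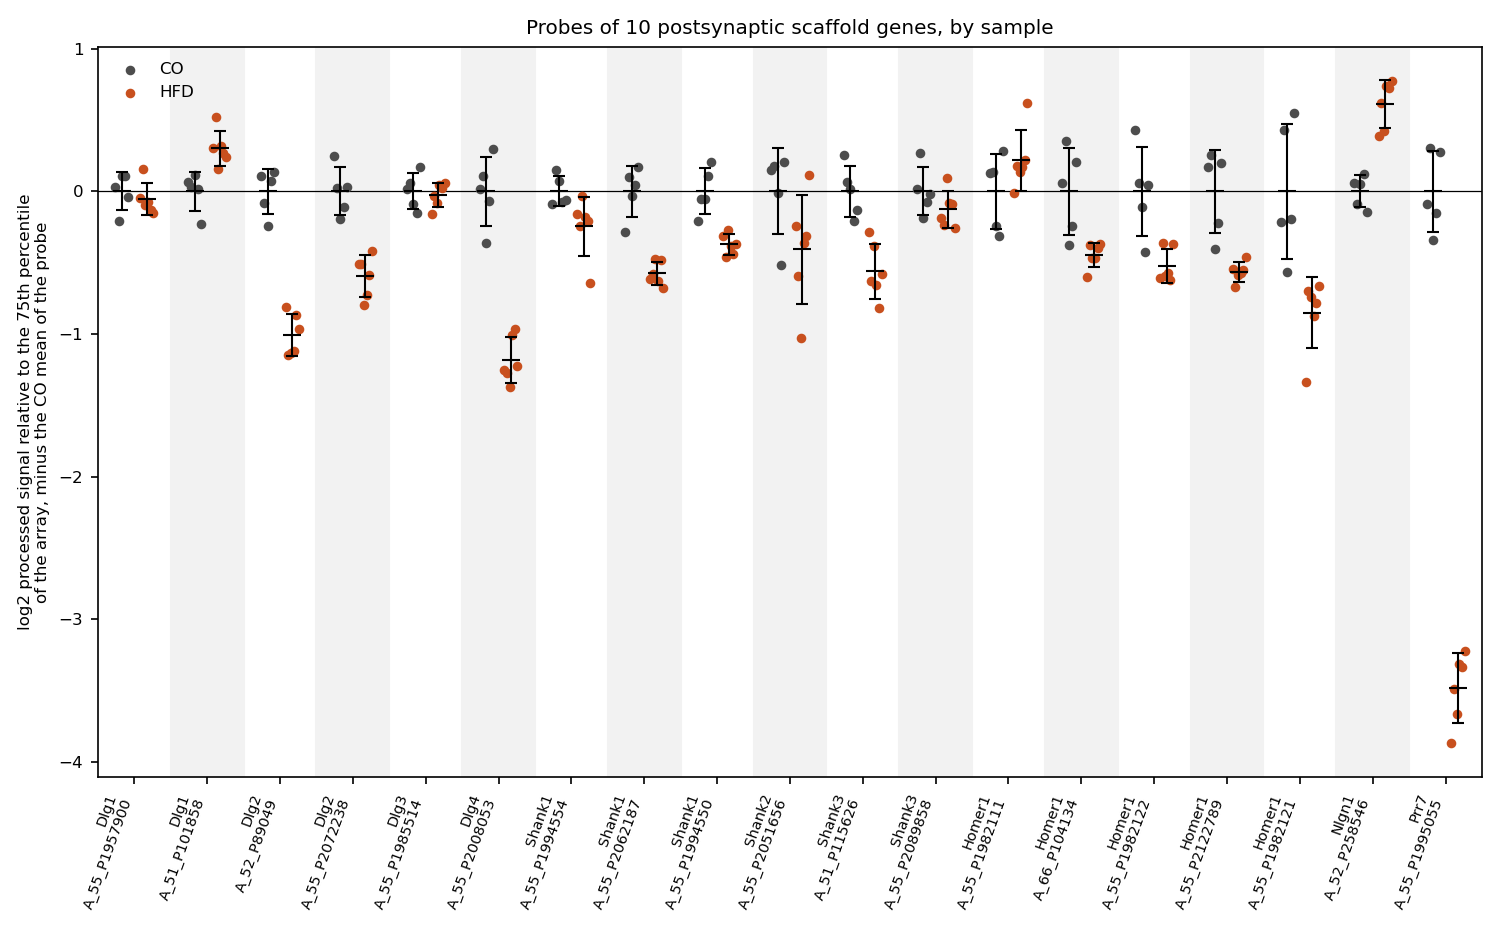
Signal of the 19 probes in each sample, on the log2 scale relative to the 75th percentile of the array and centred on the CO mean of the probe (vertical axis), with gene and probe on the horizontal axis. Points are the 5 CO and 6 HFD samples, and bars give the mean and SD of each group; the HFD points of Prr7 lie far below those of every other probe, and those of Nlgn1 lie above its CO points on this scaling.

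**Figure D2:**
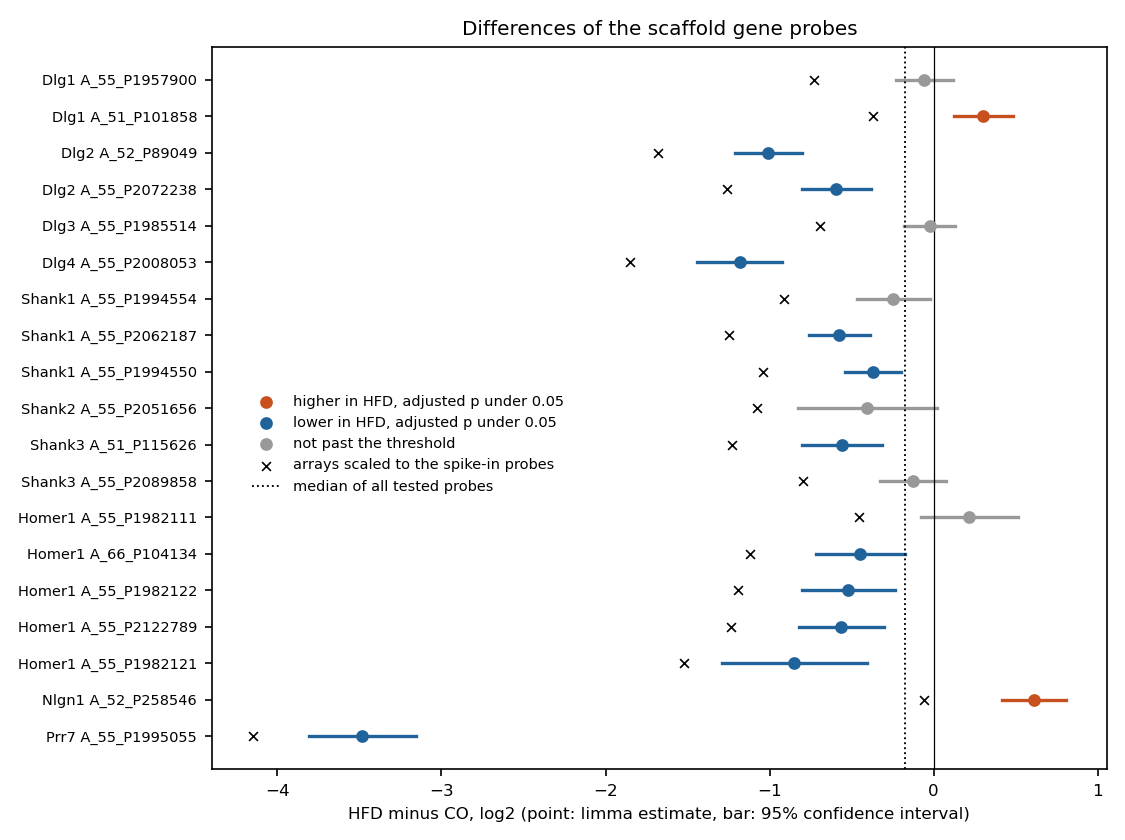
HFD minus CO difference of each probe (horizontal axis, log2) with its 95% confidence interval from limma, coloured by call, and the same difference with arrays scaled to the spike-in probes (crosses). The crosses lie 0.67 to the left of the points, so Nlgn1, the dimmer Dlg1 probe and the brightest Homer1 probe are above 0 with the scaling to the 75th percentile and not with the scaling to the spike-in probes.

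Prr7 had the largest difference of the 10 genes. Its probe (A_55_P1995055) read 0.56, 0.95, 0.30, 0.50 and 0.92 in CO replicates 1 to 5, and -3.22 at the lowest, -2.76 at the median and -2.57 at the highest in the HFD samples. All HFD samples lay below all CO samples, with a gap of 2.88 between the groups. The level fell by 3.48 (SE 0.15, limma adjusted p = 3.7e-08), to 8.95% of the CO level. Before any scaling, its processed signal was 2964 to 4963 intensity units in CO and 350 to 552 in HFD. Among the 31790 probes tested, the difference ranked as number 9 from the lowest. With the Rank Product test, the method of the study, it was also the 1 scaffold probe that passed.

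Genes beside Prr7 on its chromosome, in the RefSeq order, showed smaller differences. The nearest tested gene on either side was Grk6, which encodes a receptor kinase and fell by 0.25 (adjusted p = 0.00305), and Dbn1, which encodes the dendritic spine protein drebrin and fell by 0.67 (adjusted p = 0.000519). Of the other 4 of the 6 nearest tested genes, none passed the test. No tested gene in this order overlapped Prr7.

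The Dlg genes split into a pair that fell and a pair with small differences. Dlg4, which encodes PSD-95, the most studied scaffold of this family, read 1.21, 1.31, 0.83, 1.13 and 1.49 in CO replicates 1 to 5 (A_55_P2008053). HFD samples read -0.18 at the lowest, -0.04 at the median and 0.23 at the highest. The groups did not overlap, and the level fell by 1.18 (SE 0.12, adjusted p = 6.04e-06), 2.27-fold. Its processed signal before scaling was 4279 to 6415 units in CO and 2776 to 3760 in HFD. Of the 11 probes that were lower, 3 had unscaled signals without overlap (Prr7, Dlg4 and the brighter Dlg2 probe), and 8 had unscaled signals that overlapped, such as Shank3 (A_51_P115626) with 5824 to 8107 units in CO and 5174 to 7693 in HFD.

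Dlg2, which encodes PSD-93, fell at both of its probes. The brighter probe (A_52_P89049) read 0.63, 0.45, 0.28, 0.60 and 0.66 in CO replicates 1 to 5, and -0.62, -0.52 and -0.29 at the lowest, median and highest HFD sample. The dimmer one (A_55_P2072238) read -4.13, -4.36, -4.58, -4.49 and -4.35 in CO and -5.18, -4.93 and -4.80 at the lowest, median and highest HFD sample. Neither probe had overlapping groups. The falls were 1.01 (SE 0.09, adjusted p = 3.55e-06) and 0.59 (SE 0.09, adjusted p = 0.000198), and the dimmer probe fell less by 0.41 (SE 0.09, limma on the per-array difference of the probes, adjusted p = 0.00176). With another background correction (normexp), the dimmer probe had -0.22 and did not pass.

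Dlg3, which encodes SAP102, did not pass the test. Its probe (A_55_P1985514) read 3.30, 3.34, 3.20, 3.13 and 3.45 in CO replicates 1 to 5, and 3.13, 3.28 and 3.34 at the lowest, median and highest HFD sample. HFD samples lay within or at the edge of the CO range. The difference was -0.02 (95% confidence interval -0.18 to 0.13, adjusted p = 0.774), which leaves out a change as large as that of Dlg2 or Dlg4 with this scaling. Its unscaled signal was 22042 to 26037 units in CO and 28600 to 33338 in HFD, so here the scaling sets the result. With scaling to the spike-in probes, Dlg3 had -0.69 and passed as lower (limma adjusted p = 4.62e-05).

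Dlg1, which encodes SAP97, had probes that did not move together. At the brighter probe (A_55_P1957900) CO replicates 1 to 5 read -0.80, -1.05, -0.73, -0.73 and -0.88, and the HFD samples -0.98, -0.92 and -0.68 at the lowest, median and highest. Groups overlapped, and the difference was -0.06 (95% confidence interval -0.23 to 0.12, adjusted p = 0.542). With scaling to the spike-in probes, this probe had -0.73 and passed as lower (limma adjusted p = 9.45e-05). At the dimmer probe (A_51_P101858) CO read -2.26, -2.30, -2.21, -2.31 and -2.56, and HFD -2.17, -2.04 and -1.80. Here HFD samples lay above CO samples with a gap of 0.04, and the level was higher by 0.30 (SE 0.08, adjusted p = 0.00676), which turned to -0.37 with scaling to the spike-in probes. The dimmer probe differed from the brighter by 0.36 in its difference (SE 0.08, adjusted p = 0.0018), a value that no scaling of an array can change.

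The 9 pairs of genes within the Dlg and Shank families were compared by the per-array difference of their brightest probes (two-sided exact permutation test, adjusted over the 9 pairs). These pairs were set after the single values had been seen. Dlg4 fell more than Dlg1 by 1.13 and more than Dlg3 by 1.16, and Dlg2 fell more than Dlg1 by 0.95 and more than Dlg3 by 0.98 (each with an exact p of 0.00216, the smallest possible, and an adjusted p of 0.00487). Dlg2 and Dlg4 differed by 0.18 (adjusted p = 0.188), and Dlg1 and Dlg3 by -0.03 (adjusted p = 0.771). Neither of these values passed. The share of other gene pairs on the array that differ in this way was not counted.

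Among the Shank genes, which encode the deeper scaffold, Shank3 fell at 1 of 2 probes. The brighter probe (A_51_P115626), printed in 10 spots on each array, read 1.77, 1.59, 1.54, 1.31 and 1.39 in CO replicates 1 to 5, and 0.70, 0.92 and 1.24 at the lowest, median and highest HFD sample. Groups did not overlap, although the gap was 0.08. The SD over the 10 spots of an array was 0.04 to 0.08, below the SD of 0.18 over CO samples and 0.19 over HFD samples. The fall was 0.56 (SE 0.11, adjusted p = 0.000871). The dimmer probe (A_55_P2089858) read -4.08, -3.83, -4.28, -4.17 and -4.12 in CO and -4.36, -4.23 and -4.00 at the lowest, median and highest HFD sample. It had overlapping groups and -0.13 (95% confidence interval -0.33 to 0.07, adjusted p = 0.239), and its difference lay 0.43 above that of the brighter probe (SE 0.12, adjusted p = 0.00972).

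Shank1 had 3 probes of the same accession, all with negative differences. A_55_P2062187 read -3.07, -2.68, -2.81, -2.74 and -2.61 in CO replicates 1 to 5 and -3.46, -3.38 and -3.25 at the lowest, median and highest HFD sample, and fell by 0.58 (SE 0.08, adjusted p = 0.000106). A_55_P1994550 read -3.14, -2.98, -2.98, -2.82 and -2.72 in CO and -3.38, -3.30 and -3.20 in HFD, and fell by 0.37 (SE 0.08, adjusted p = 0.00139). Neither had overlapping groups. The brightest probe, A_55_P1994554, read -2.76, -2.52, -2.60, -2.74 and -2.73 in CO and -3.31, -2.87 and -2.70 in HFD. Its groups overlapped and its difference of -0.24 (SE 0.10) lay at the threshold, with adjusted p = 0.051 over all probes and 0.0483 where each gene had only its brightest probe. With the normexp correction, A_55_P2062187 had -0.52 and A_55_P1994550 had -0.48, and neither passed.

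Shank2 was measured by 1 dim probe (A_55_P2051656). It read -5.28, -5.25, -5.44, -5.94 and -5.22 in CO replicates 1 to 5, and -6.45, -5.76 and -5.31 at the lowest, median and highest HFD sample. The groups overlapped, and the difference was -0.40 (95% confidence interval -0.83 to 0.02, adjusted p = 0.0832). The Shank genes did not differ from each other past the threshold in the pairwise test, where the lowest adjusted p was 0.074, for Shank1 against Shank3 (0.31).

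Homer1 encodes a scaffold that ties metabotropic glutamate receptors to Shank proteins, and its gene is known to give a long form and a short, activity-induced form that lacks the coiled coil. Of its 5 probes, 4 fell and the brightest did not. The brightest (A_55_P1982111) read 0.07, 0.07, -0.31, -0.38 and 0.22 in CO replicates 1 to 5, and -0.08, 0.11 and 0.55 at the lowest, median and highest HFD sample. Groups overlapped, and the difference was 0.22 (95% confidence interval -0.08 to 0.51, adjusted p = 0.173), which turned to -0.45 with scaling to the spike-in probes. Its unscaled signal was 1939 to 2698 units in CO and 3091 to 4827 in HFD, without overlap, so the scaling sets this result as well.

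A_66_P104134, which carries the same accession as the brightest probe, read -0.49, -0.19, -0.92, -0.79 and -0.34 in CO and -1.15, -0.98 and -0.92 at the lowest, median and highest HFD sample. It fell by 0.45 (SE 0.12, adjusted p = 0.00722). The other 3 probes carry another accession of the gene. A_55_P1982122 read -0.26, -0.63, -0.80, -1.11 and -0.64 in CO and -1.31, -1.27 and -1.05 in HFD, and fell by 0.52 (SE 0.13, adjusted p = 0.00392). A_55_P2122789 read -0.63, -0.55, -1.20, -1.02 and -0.60 in CO and -1.47, -1.36 and -1.26 in HFD, and fell by 0.56 (SE 0.12, adjusted p = 0.00128). The dimmest, A_55_P1982121, read -4.65, -4.01, -5.0, -4.63 and -3.89 in CO and -5.77, -5.20 and -5.10 in HFD, and fell by 0.85 (SE 0.20, adjusted p = 0.00297). Groups did not overlap at A_55_P2122789 and A_55_P1982121 and overlapped at the edge at the other two. With the normexp correction, A_55_P1982122 had -0.37 and A_55_P1982121 had -0.34, and neither passed.

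Relative to the brightest probe, the 4 others fell by 0.66 (A_66_P104134, SE 0.09, adjusted p = 8.98e-05), 0.74 (A_55_P1982122, SE 0.11, adjusted p = 0.000139), 0.78 (A_55_P2122789, SE 0.09, adjusted p = 2.9e-05) and 1.07 (A_55_P1982121, SE 0.14, adjusted p = 6.11e-05). The unequal change therefore ran within an accession as well as between accessions. Which transcript form each probe binds was not examined here. Over the scaffold genes, 8 of 9 further probes differed from the brightest probe of their gene in this way, and over the array 54.9% of 5471 such pairs did.

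**Figure D3:**
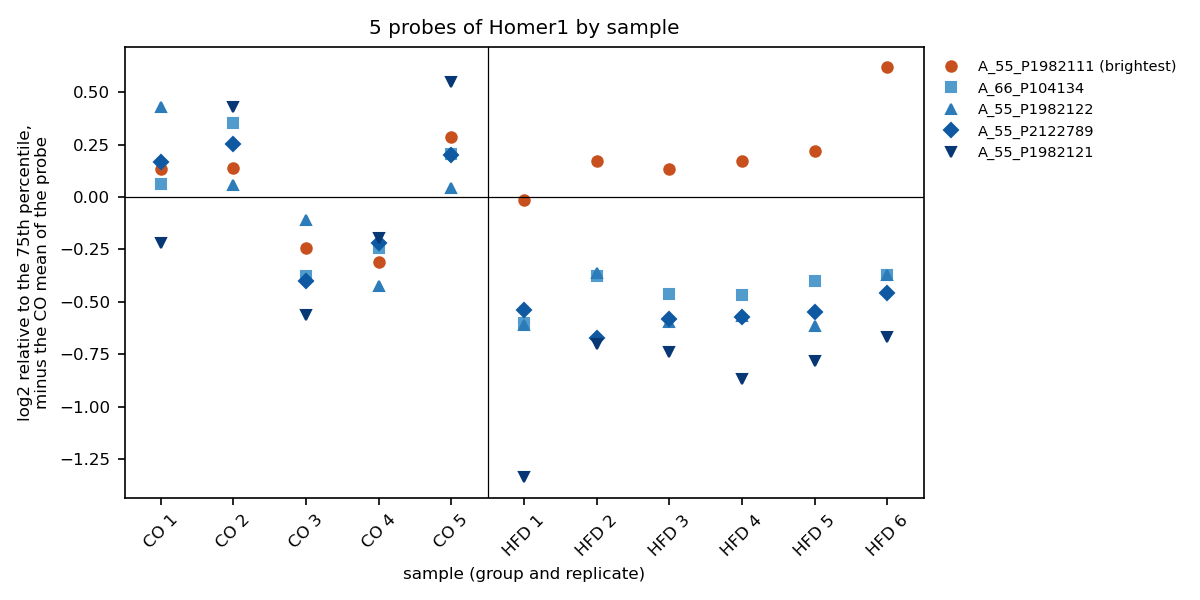
Signal of the 5 Homer1 probes in each sample (horizontal axis), on the log2 scale relative to the 75th percentile and centred on the CO mean of each probe (vertical axis). In HFD samples the 4 blue probes lie below 0 and the brightest probe lies near or above 0, and in CO samples replicates 3 and 4 lie below 0 at all 5 probes; scaled to the spike-in probes the brightest probe would lie at -0.45.

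Nlgn1, the adhesion molecule of the set, was the 1 gene that rose by its brightest probe. That probe (A_52_P258546) read -0.77, -0.91, -0.77, -0.70 and -0.97 in CO replicates 1 to 5, and -0.44, -0.15 and -0.05 at the lowest, median and highest HFD sample. All HFD samples lay above all CO samples, and the level was higher by 0.61 (SE 0.09, adjusted p = 0.000108), 1.53-fold. With scaling to the spike-in probes the difference was -0.06 (adjusted p = 0.662). A further probe (A_55_P2061640), which the array names only by an Ensembl transcript and which a list of the study, drawn from these arrays, names Nlgn1, was outside the rule and is not counted. It was well above background on 4 of 5 CO and 6 of 6 HFD arrays, and its mean was -7.43 in CO and -4.53 in HFD.

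Promoter sequence was set beside these differences for the genes whose results stand out: Prr7 and Dlg4, with the largest falls, Homer1, with unequal probes, and Shank3. RefSeq start sites of build GRCm38.p6 were found for 8 of the 10 genes, and the 250 bases before the most upstream start of each of these 4 genes follow, 5′ to 3′. They lie at chr13:55464017-55464266, plus strand, for Prr7, chr11:70016953-70017202, plus strand, for Dlg4, chr13:93303507-93303756, plus strand, for Homer1 and chr15:89499358-89499607, plus strand, for Shank3. Capitals mark matches on either strand to TGACG, the core of the cAMP response element, or to GGGCGG, the core of the SP1 site (CCGCCC on the other strand).
Prr7: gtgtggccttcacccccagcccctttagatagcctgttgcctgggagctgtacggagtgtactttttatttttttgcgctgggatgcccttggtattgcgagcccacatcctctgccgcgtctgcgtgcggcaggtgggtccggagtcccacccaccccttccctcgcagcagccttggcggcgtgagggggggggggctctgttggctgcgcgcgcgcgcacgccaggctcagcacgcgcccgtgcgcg
Dlg4: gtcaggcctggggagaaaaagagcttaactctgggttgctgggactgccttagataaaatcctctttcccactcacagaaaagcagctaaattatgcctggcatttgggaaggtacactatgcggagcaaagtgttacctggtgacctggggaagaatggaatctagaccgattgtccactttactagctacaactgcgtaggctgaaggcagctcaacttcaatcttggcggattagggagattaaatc
Homer1: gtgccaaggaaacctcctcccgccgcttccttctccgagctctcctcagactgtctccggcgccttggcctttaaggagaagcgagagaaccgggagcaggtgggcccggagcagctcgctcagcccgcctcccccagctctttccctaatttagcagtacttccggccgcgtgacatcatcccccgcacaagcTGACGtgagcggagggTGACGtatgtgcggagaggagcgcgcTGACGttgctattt
Shank3: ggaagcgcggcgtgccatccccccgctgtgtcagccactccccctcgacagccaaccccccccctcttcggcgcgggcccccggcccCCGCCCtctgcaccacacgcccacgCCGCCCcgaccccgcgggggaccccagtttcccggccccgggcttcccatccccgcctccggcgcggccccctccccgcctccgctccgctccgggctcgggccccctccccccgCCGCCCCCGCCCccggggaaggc
In Homer1 the letters TGACG occurred 3 times, and in Shank3 the letters GGGCGG or CCGCCC occurred 4 times. Neither motif was present in the windows of Prr7 and Dlg4. TGACG was present in 17.8% and GGGCGG in 32.7% of 32851 windows of the same length, and in 3 and 5 of the 18 windows of the scaffold genes. The window of Prr7 held 22 CpG pairs at 66.8% G and C, that of Homer1 21 at 62.4%, that of Shank3 31 at 82.4%, and that of Dlg4 4 at 47.2%, against a median of 6 pairs over all windows. The arrays measured no binding or methylation at these windows, and a match is a description of letters only.

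Partners of the scaffolds were followed in 5 lists by the brightest probe of each gene. By this measure, 1 of the 10 scaffold genes was higher and 5 were lower, with a median difference of -0.32 over the 10. Of 17188 genes, 66.4% passed, 22.2% as higher and 44.1% as lower, with a median of -0.17. Among 88 partner genes tested of 90 listed, 26 were higher and 29 were lower, which left 33 that did not pass, with a median of -0.04. With scaling to the spike-in probes, 7 partners were higher and 68 lower, beside 957 higher and 14360 lower of all 17188 genes. With scaling to the median 29 partners were higher and 22 lower, beside 4204 and 6415 of all genes.

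Further scaffold proteins of the density changed in both directions. The 22 measured included 8 that were higher and 10 that were lower, with a median of -0.20. Homer3, a close relative of Homer1, fell by 0.89 (SE 0.09, adjusted p = 7.57e-06), and Magi2, which encodes another PDZ scaffold, fell by 0.55 (adjusted p = 0.000102). Tanc2, which encodes a scaffold that binds PSD-95, was higher by 0.69 (adjusted p = 3.57e-05), as was Cask, which encodes a guanylate kinase partner of neurexins (0.69, adjusted p = 7.56e-05). With scaling to the spike-in probes, every difference named for the partners lies 0.67 lower.

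Kinases and regulators of small GTPases were mostly short of the threshold. Of 15 tested, 2 were higher, 3 lower and 10 did not pass, with a median of -0.18. The number lower ran from 2 to 5 when 1 array was left out, with 5 without HFD replicate 6, and was 6 with the probes of a gene averaged. Ppp1r9a, which encodes the spine protein neurabin, was higher by 0.80 (adjusted p = 2.85e-05) and Camk2d, which encodes a calcium/calmodulin kinase subunit, by 0.73 (adjusted p = 5.45e-05). Arhgef7 and Git1, whose proteins form a complex that regulates Rac signaling, fell by 0.49 (adjusted p = 0.000231) and 0.40 (adjusted p = 0.00143). Of the 2 tested probes of Arhgef7, only the brightest passed.

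Adhesion molecules, the group of Nlgn1, held 7 higher and 6 lower of 22 tested, with 9 that did not pass and a median of 0.07, and Lrrtm4 was not tested. Ephb2, which encodes a receptor for ephrins, fell by 1.37 (adjusted p = 4.48e-06), Clstn1, which encodes a calsyntenin, by 0.76 (adjusted p = 2.42e-06) and Lrfn1, which encodes a PSD-95 binding molecule, by 0.76 (adjusted p = 6.41e-06). Of the 2 tested probes of Lrfn1, only the brightest passed. Cntnap2, which encodes a relative of the neurexins, was higher by 1.11 at its brightest probe (adjusted p = 5.01e-06), while 1 of its 3 tested probes passed in the opposite direction.

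Glutamate receptors and their auxiliary subunits, the cargo that the scaffolds hold, had 8 higher and 6 lower of 21 tested, and 7 that did not pass, with a median of 0.12. The 4 with the smallest adjusted p were all higher. Gria2 and Gria3, which encode AMPA receptor subunits, were higher by 2.48 (SE 0.17, adjusted p = 5.99e-07) and 1.67 (SE 0.13, adjusted p = 1.29e-06). Grm5, which encodes the metabotropic receptor that Homer proteins bind, was higher by 0.97 (SE 0.08, adjusted p = 2.66e-06) at its brightest probe and at all 3 tested probes. Grin2b, which encodes an NMDA receptor subunit, was higher by 0.72 (SE 0.06, adjusted p = 1.24e-06), but its second tested probe passed in the opposite direction.

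Among 8 activity-regulated genes, 1 was higher and 4 were lower, with a median of -0.30. Arc, whose product acts on AMPA receptor endocytosis, fell by 1.15 (SE 0.17, adjusted p = 9.4e-05). Transcription factor genes Fos, Egr1 and Jun fell by 1.03 (adjusted p = 0.000565), 0.81 (adjusted p = 0.00296) and 0.33 (adjusted p = 0.000357). The gene that was higher, named after its value had been seen, was Bdnf, which encodes a neurotrophin (0.67 at its 1 probe, adjusted p = 0.00488). With scaling to the spike-in probes this difference lies 0.67 lower. By quantitative PCR of the hypothalamus at P21, the paper reported the opposite direction, with Bdnf RNA reduced in HFD offspring.

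**Figure D4:**
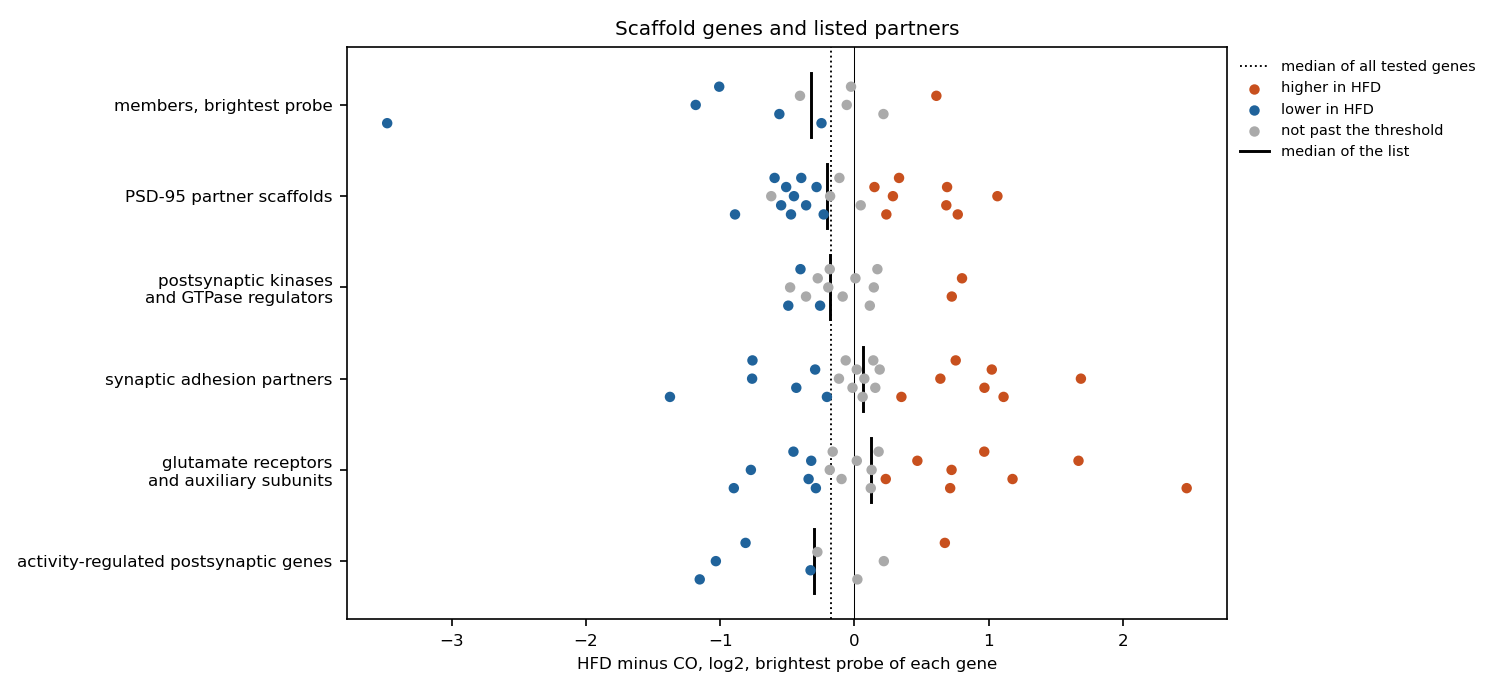
HFD minus CO difference (horizontal axis, log2) of the brightest probe of each scaffold gene and of the genes of 5 partner lists, 1 point a gene, coloured by call. Black bars give list medians, from -0.32 for the scaffold genes to 0.12 for the glutamate receptors, and the dotted line gives the median of all tested genes, -0.17; scaling to the spike-in probes would move every point 0.67 to the left.

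Markers of the dissected tissue and of its neighbours were read beside these results. All 8 hypothalamic markers were well above background on all arrays; Pmch was higher by 0.87 and Hcrt by 0.58 in HFD offspring, and 6 did not pass. Of 8 markers of striatum, a region in front of and above the hypothalamus in which postsynaptic scaffold genes are also expressed, 7 fell, with a median of -1.34. Their summed level, with the 75th percentile as 1, was 54.1, 64.5, 20.2, 9.23 and 40.6 in CO replicates 1 to 5 and 5.01 to 18.2 in the HFD samples. CO replicate 4 thus lay within the HFD range. In cortex and hippocampus markers, 1 of 8 was higher and 2 were lower, with sums of 4.37 to 9.89 in CO and 1.55 to 6.57 in HFD. Neuronal markers had 5 of 8 higher and none lower, with sums of 119 to 135 in CO and 158 to 176 in HFD, and oligodendrocyte markers had 5 of 6 lower, with sums of 324 to 368 and 276 to 335. Microglia markers had 2 of 6 higher and 3 lower, with sums of 19.3 to 23.5 in CO and 14.6 to 17.1 in HFD. Astrocyte markers had 2 of 6 lower, with sums of 151 to 210 in CO and 140 to 162 in HFD, and thalamus markers had 2 of 5 higher and 1 lower, with sums of 6.26 to 11.5 and 7.11 to 10.3. Of 6 pituitary markers, 4 were tested, 1 of them higher and 1 lower, with sums of 0.231 to 0.307 and 0.222 to 0.330. The part of these markers in the differences of the scaffold genes was not tested. In such bulk tissue, fewer cells of a type and less RNA per cell cannot be told apart.

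Homer1 moved with the striatal markers among the CO samples: CO replicates 3 and 4, with the lowest striatal sums, were also the lowest at 4 of its 5 probes. The same held for the probes of Prr7, Dlg3, Dlg4 and Shank2 and the dimmer probes of Dlg2 and Shank3. This order did not hold at the other scaffold probes. At the brighter Dlg1 probe, CO replicates 3 and 4 were the highest CO samples (both -0.73). The share of all probes on the array with this order was not counted. The comparison was also made without CO replicates 1, 2 and 5, which had the highest striatal sums. This choice was made after the values had been seen and leaves 2 CO arrays. The sums come from the same arrays, so this comparison is not a test of a part of striatal tissue in the differences. At the probes where CO replicates 3 and 4 were the lowest, these 3 samples were the highest CO samples. Leaving them out lowers the CO mean there by construction. Of the 19 probes, 2 were then higher and 8 lower, with 16315 of 31790 probes past the threshold over the array. The 4 Homer1 probes that had fallen were at -0.47 to -0.14, and 1 of them passed (A_55_P2122789, -0.25, adjusted p = 0.0354), and the brightest probe was higher by 0.49 (adjusted p = 0.0229). The dimmer Dlg1 probe was at 0.24 and did not pass (adjusted p = 0.0848). Prr7 fell by 3.23 (adjusted p = 5.3e-06), Dlg4 by 0.97 (adjusted p = 0.000531), Dlg2 by 0.92 (A_52_P89049, adjusted p = 0.000546) and Shank3 by 0.46 (A_51_P115626, adjusted p = 0.0268), and Nlgn1 was higher by 0.52 (adjusted p = 0.00795). In CO replicates 3 and 4, with striatal sums of 20.2 and 9.23, Prr7 read 0.30 and 0.50 and Dlg4 read 0.83 and 1.13. These were the lowest CO readings of both probes. The cause was not tested. Of the partner genes, 23 were higher and 18 lower without the 3 samples, beside 2880 and 5451 of all 17188 genes, against 3819 and 7587 with all samples.

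**Figure D5:**
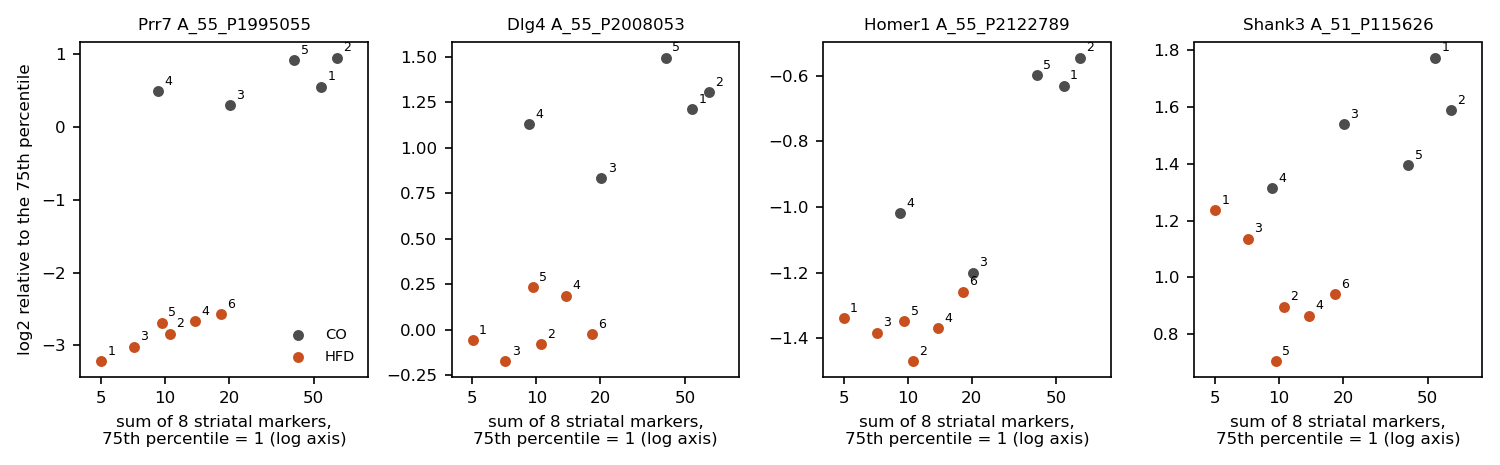
Level of 4 probes (vertical axes, log2 relative to the 75th percentile) against the sum of 8 striatal markers in the same sample (horizontal axes, log scale, 75th percentile as 1), with CO and HFD samples coloured and numbered by replicate. CO replicates 3 and 4, with the lowest striatal sums of the CO samples, are also the lowest CO samples for Prr7, Dlg4 and Homer1.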

How the data were processed

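The authors deposited the scanner output of 11 single-dye Agilent arrays, whose processed signals are linear intensity values after background subtraction. Feature Extraction is version 10.8 in the submitters' processing notes and version 10.7.3.1 in the file headers. Any scaling across arrays by the authors was not given in the sources used here. The flag columns that mark spots well above background and outlier spots were also used as deposited.

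Control and outlier spots were left out, spots of a probe were averaged, and each array's 75th percentile was subtracted on the log2 scale. Accessions were matched without versions to RefSeq genes of GRCm38.p6, while the array design names an older build, so no gene coordinates were taken from it. Of 39429 mouse probes, 26369 matched a gene. Probes that stood well above background on 5 or more of 11 arrays were tested with limma 3.58.1 in R 4.3.3, two-sided, with Benjamini-Hochberg adjustment. Gene counts used the brightest probe of each gene, and probes of a gene were compared by their per-array difference. Fits were run on simulated arrays with a small set of probes changed and no shift of slide or protocol. The simulation therefore does not bear on such shifts in these arrays. No arrays held identical values, and the number of arrays limits the precision. The members, lists and tests were chosen with earlier results of these data known. Named beside the members are the 4 genes of each partner list with the smallest adjusted p, the nearest genes of Prr7 and markers. Alternatives were other scalings, normexp, filters on dim probes, blocks for slide, replicate number and label number, array weights, the Rank Product test (100 permutations), averaging a gene's probes, leaving out each array, and leaving out 3 CO arrays.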

Additional observations from a re-analysis of the deposited data

Results flagged for a closer look

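In each group, the highest or lowest sample of every probe was compared with the nearest other sample by its gap over the range of the group (Dixon's criterion, 95% level). Of 38 groups of samples examined, 4 had such a sample, and chance alone gives about 1 in 20. Dlg1 (A_55_P1957900) read -0.68 in HFD replicate 2, and the next sample read -0.88. Shank1 (A_55_P1994554) read -3.31 in HFD replicate 6, and the next -2.92. Homer1 read 0.55 at its brightest probe (A_55_P1982111) in HFD replicate 6, the next being 0.15, and -5.77 at its dimmest probe (A_55_P1982121) in HFD replicate 1, the next being -5.31.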

How the results depend on the processing

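Without any 1 array, 2 probes were higher and 11 to 12 lower, and 8 of 9 further probes differed from the brightest of their gene. By the brightest probe, 1 gene was higher and 4 to 5 were lower, with 24 to 27 partner genes higher and 26 to 32 lower. Scaling to the spike-in probes gave 0 probes and 0 genes higher, 18 probes and 9 genes lower, and 7 partners higher and 68 lower, beside 25562 of 31790 probes and 14360 of 17188 genes lower over the array, with Dlg1 (A_51_P101858) at -0.37, Homer1 (A_55_P1982111) at -0.45 and Nlgn1 at -0.059. The normexp correction gave 6 probes lower, 19 partners lower and 5 of 9 unequal probe pairs, while over the array it took probes lower from 13852 to 5458, genes lower from 7587 to 3927 and unequal pairs from 3005 to 1532. It used spot medians. The Rank Product test gave 0 probes higher and 1 lower, at a percentage of false positives below 0.001, with 826 of 31701 probes higher and 628 lower over the array. Without the 3 CO arrays of highest striatal sum, 2 genes were higher by the brightest probe and 18 partners lower. Differences near 0 changed sign without passing the test. Dlg1 (A_55_P1957900) went to 0.0047 with scaling to the median, and Shank3 (A_55_P2089858) to 0.036 with quantile normalization and 0.0051 without the 3 CO arrays. Dlg3 went to 0.025 with quantile normalization, 0.037 with scaling to the median, 0.0072 with array weights and 0.097 without the 3 CO arrays, and ranged from -0.063 to 0.017 without any 1 array. The probe of Shank2, with a signal of 35.8 to 82.9 intensity units in HFD samples, had an SD of 0.38 there, the largest of the 19 probes in that group. The cause of these changes was not tested, beyond the shift that the spike-in scaling adds by construction.

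The replicate numbers did not pair the samples, since deviations of same-numbered samples correlated at -0.09 to 0.22 over probes, and 2 of 5 CO samples correlated best with their own number. With the replicate block, 2 probes were higher and 12 lower, Shank2 being added at -0.51 (adjusted p = 0.0353). This fit also sets aside HFD replicate 6, which has no CO sample of its number, and without that array and no block Shank2 passed at the same value (adjusted p = 0.0285), as it did without CO replicate 4 (-0.53, adjusted p = 0.0241). With the block, 1 gene was higher and 5 lower, 22 partners were higher and 29 lower, and 8 of 9 probe pairs differed.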
